A study of Mus musculus with 3 samples.

Results

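The actin contractile apparatus genes followed here are 10 mouse genes, Acta2, Actg2, Myh11, Myl9, Tpm1, Tpm2, Tagln, Cnn1, Lmod1 and Des, out of 32285 genes in the count matrices. They were taken by gene symbol, and all 10 were found in each of the 3 matrices. They were measured by droplet-based 3′ single-cell RNA sequencing of synovium and infrapatellar fat pad from the knees of wt mice, with 1 library in each group. The groups were labelled Control, 1_week and 2_month. Mice of the control library were 2 months old at harvest. The others had destabilisation of the medial meniscus (DMM), a surgical model of post-traumatic osteoarthritis, when 2 months old, and their knees were taken 1 week or 2 months afterwards. The 2-month group was therefore also older than the control. Each library pooled 5 to 10 mice. Their tissue was digested with trypsin (0.25%, 30 min) followed by collagenase I (300 U/mL, 30 min) and sorted for live cells. The labels state neither the sex of the mice nor a sham operation.

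Actomyosin contraction rests on filaments of smooth muscle actin, along which filaments of smooth muscle myosin pull. Tropomyosins, calponin, transgelin and leiomodin bind or regulate the actin filaments, and desmin filaments link them through the cell. Many of these genes are targets of serum response factor (SRF), which binds a promoter element named the CArG box and works with the co-activators myocardin and MRTF. In synovium and fat pad the genes are known from arterial and arteriolar smooth muscle and from pericytes, and Acta2 is widely used to mark myofibroblasts, the contractile matrix-making fibroblasts of wounds and fibrosis.

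Cells were compared within gates set by a few transcripts counted as unique molecular identifiers (UMIs), the molecules of a gene caught in a cell. Fibroblasts had a Pdgfra UMI and none of Ptprc and Cdh5, and numbered 3781 in the control library, 4748 at 1 week and 5317 at 2 months. Mural cells, the cells that wrap vessels, had a Notch3 UMI and none of Pdgfra, Ptprc and Cdh5. They were split at 10 Rgs5 UMIs into Rgs5-high cells (101, 510 and 174) and Rgs5-low cells (593, 201 and 249). The libraries held 96782789, 179561680 and 159333121 UMIs over 9003, 13986 and 10799 barcodes, of which 8099, 12316 and 9782 passed the filters with medians of 10871, 12919.5 and 13543 UMIs. Pairs of libraries shared between 21 and 30 barcodes. Levels are summed UMIs of a gate per 1000000 UMIs of that gate (CPM). With 1 library per group no test between libraries was possible, so the ranges in parentheses are exact 95% intervals for counting error, which leave out the spread between mice. A difference is called when 2 sums differ by at least 2-fold and hold at least 50 UMIs together.

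The gates were checked against markers other than the 10 genes. Rgs5-high cells carried Kcnj8, a potassium channel gene of pericytes, at 212, 208 and 169 CPM in the control, 1-week and 2-month libraries, and Rgs5-low cells had 23.6, 13.2 and 45.0 CPM. Pln, the phospholamban of smooth muscle and heart, ran the other way, with 124, 11.9 and 108 CPM in Rgs5-high cells and 672, 103 and 565 CPM in Rgs5-low cells. Summed over the 10 smooth muscle markers with Pln among them, the mural gates lay closer. Rgs5-high cells had 3844, 1113 and 2901 CPM of these markers, and Rgs5-low cells 6966, 1502 and 5838 CPM. Not all of them ran as Pln did. At 1 week Map3k7cl had 65.1 CPM in Rgs5-high and 59.0 CPM in Rgs5-low cells, and Synpo2 had 86.4 and 59.4 CPM. In the control and 2-month libraries both were higher in Rgs5-low cells. The Rgs5-low gate at 1 week went against its name. In 106 of its 201 cells (52.7%) the fibroblast genes Dcn and Lum made up 10 or more of every 10000 UMIs, against 50 of 593 control cells (8.43%), and at 2 months it was 34 of 249 (13.7%). In that gate the changes of members between libraries are therefore given with and without such cells. Its other results are over the whole gate unless stated. The fibroblast gate held cells with mural transcripts. A Notch3 or Rgs5 UMI was found in all but 2943, 3507 and 3910 of its cells. Member changes between libraries are given for the whole gate and for those Notch3- and Rgs5-negative fibroblasts, which made up most of it.

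The promoters of the members are shown for the CArG box, a run of A and T bases between a pair of C and a pair of G, because SRF is known to bind it at many smooth muscle genes. RefSeq start sites of build GRCm38.p6 were available for 7 of the 10 genes, each with 250 bases before and 50 after the start. Both strands were searched, and no other motif was. An exact match was found in 1 of 7 members (14.3%), against 488 of 27025 genes with a promoter in the table (1.81%). An exact match or one with 1 changed letter was found in 4 of 7 members (57.1%), against 6419 genes (23.8%). Of 38 partner actomyosin and actin-binding genes with a promoter in the table, 9 (23.7%) held an exact match. The matching stretches follow, with the box in capitals.
Acta2, minus strand, chr19:34255383-34255422, box with 1 changed letter 34 bases upstream: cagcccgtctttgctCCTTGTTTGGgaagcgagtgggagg
Acta2, minus strand, chr19:34255433-34255472, box with 1 changed letter 84 bases upstream: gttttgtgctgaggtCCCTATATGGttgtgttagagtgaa
Myl9, plus strand, chr2:156775288-156775327, exact box 161 bases upstream: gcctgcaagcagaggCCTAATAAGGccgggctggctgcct
Myl9, plus strand, chr2:156775350-156775389, box with 1 changed letter 99 bases upstream: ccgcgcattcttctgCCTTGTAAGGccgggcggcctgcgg
Tpm1, minus strand, chr9:67049269-67049308, box with 1 changed letter 80 bases upstream: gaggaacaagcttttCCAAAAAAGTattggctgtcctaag
Tpm1, minus strand, chr9:67049410-67049449, box with 1 changed letter 221 bases upstream: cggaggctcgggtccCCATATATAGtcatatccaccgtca
Lmod1, plus strand, chr1:135324609-135324673, boxes with 1 changed letter 189 and 164 bases upstream: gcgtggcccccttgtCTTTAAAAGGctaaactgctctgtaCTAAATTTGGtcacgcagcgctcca
No match with at most 1 changed letter lay in the windows of Tpm2, Cnn1 and Des. A match describes the letters of the window and says nothing about binding.

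Each member was far lower in fibroblasts than in mural cells, and in the control and 2-month libraries most were highest in Rgs5-low cells (see the plot of levels by gate). Acta2 (chr19:34241090-34255590 in GRCm38), the smooth muscle α-actin, had 236 CPM in the control library, 235 CPM at 1 week and 128 CPM at 2 months in fibroblasts. In Rgs5-high cells it had 6656, 4551 and 5511 CPM, and in Rgs5-low cells 18150.2, 3787 and 14361 CPM, in the same order of libraries. Fibroblasts were the lowest of these gates in every library. Over the whole gates the order of the mural cells turned over at 1 week, where Rgs5-high cells were above Rgs5-low cells. Without the Dcn- and Lum-rich cells it did not, with 4564 CPM in Rgs5-high and 8668 CPM in Rgs5-low cells at 1 week. Actg2 (chr6:83512905-83536265), the smooth muscle γ-actin best known from gut and bladder, had 0.944, 5.49 and 2.53 CPM in fibroblasts, 91.6, 245 and 231 CPM in Rgs5-high cells and 34.9, 71.0 and 449.6 CPM in Rgs5-low cells. It was the member whose control level was higher in Rgs5-high than in Rgs5-low cells, 2.62-fold.

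**Figure D1:**
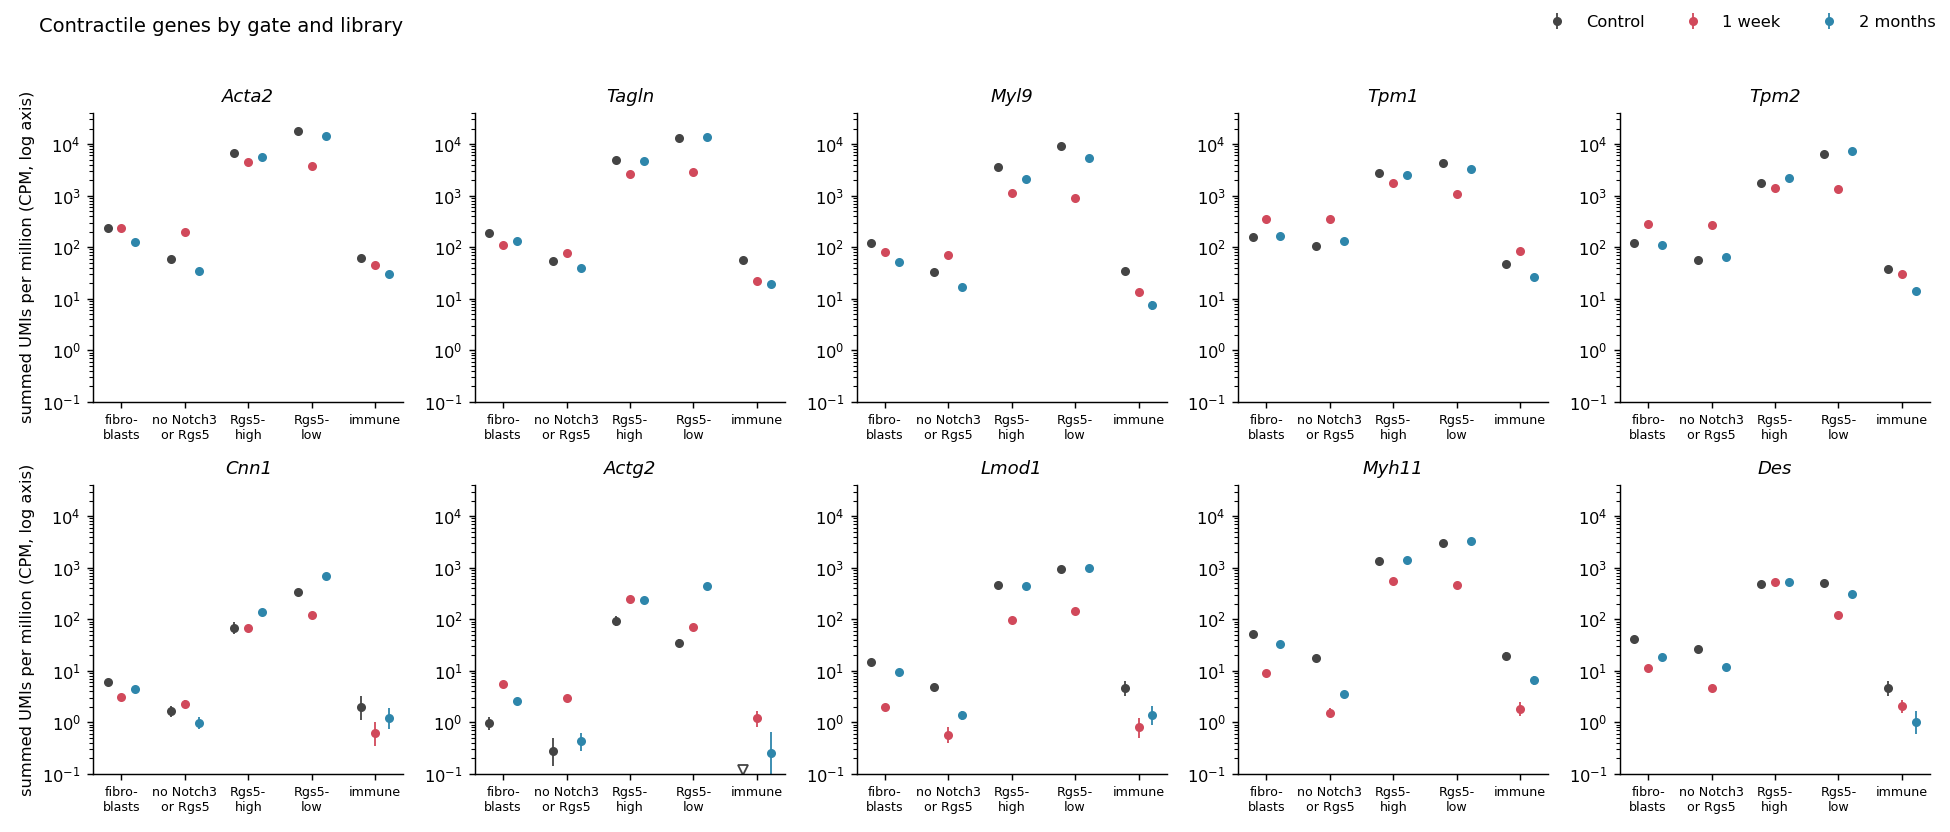
Summed UMIs per 1000000 UMIs (CPM, log axis) of each member in 5 gates, with 1 point per library (control dark grey, 1 week red, 2 months blue) and 95% counting intervals; the open triangle at the bottom axis is a level of 0. Mural gates stand above both fibroblast gates for every member, and the 1-week Rgs5-low point lies below the control point for each member except Actg2.

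The motor genes followed the same order. Myh11 (chr16:14194535-14291372), the smooth muscle myosin heavy chain and the most specific marker of smooth muscle among the 10, had 52.0 CPM in the control library, 8.85 CPM at 1 week and 33.3 CPM at 2 months in fibroblasts. In Rgs5-high cells it had 1352, 541 and 1393 CPM and in Rgs5-low cells 3043, 451 and 3329 CPM. Myl9 (chr2:156775420-156781658), a regulatory light chain of that myosin, had 118, 80.5 and 52.2 CPM in fibroblasts, 3533, 1136 and 2105 CPM in Rgs5-high cells and 9019, 897 and 5404 CPM in Rgs5-low cells. For both genes the control and 2-month libraries had higher levels than the 1-week library in each mural gate. Tpm1 (chr9:67022590-67049406) and Tpm2 (chr4:43514711-43523765) encode tropomyosins, which lie along actin filaments and are used by many cell types. Tpm1 had 157, 353 and 161 CPM in fibroblasts, 2689, 1774 and 2524 CPM in Rgs5-high cells and 4302, 1074 and 3337 CPM in Rgs5-low cells. For Tpm2 the levels were 120.4, 282 and 112 CPM in fibroblasts, 1775, 1396 and 2150.1 CPM in Rgs5-high cells and 6452, 1322 and 7166 CPM in Rgs5-low cells. Like the motor genes, both were lowest at 1 week within each mural gate, but within fibroblasts they were highest at 1 week.

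Among the actin-binding members, Tagln (chr9:45929619-45936058), transgelin or SM22α, had 191, 108 and 130.4 CPM in fibroblasts, 4878, 2564 and 4680.2 CPM in Rgs5-high cells and 13307, 2838 and 13582 CPM in Rgs5-low cells. Cnn1 (chr9:22099216-22109630), the basic calponin that inhibits actomyosin in smooth muscle, had 6.09, 3.06 and 4.39 CPM in fibroblasts, 67.8, 67.3 and 136 CPM in Rgs5-high cells and 339, 119 and 679 CPM in Rgs5-low cells. Lmod1 (chr1:135324807-135368065), the leiomodin that nucleates actin filaments in smooth muscle, had 14.5, 1.94 and 9.30 CPM in fibroblasts, 462, 96 and 438 CPM in Rgs5-high cells and 949, 146 and 998 CPM in Rgs5-low cells. Des (chr1:75360329-75368579), the muscle intermediate filament desmin, like Actg2 did not favour Rgs5-low cells in the control. Des had 41.3, 11.4 and 18.1 CPM in fibroblasts, 485, 524 and 538 CPM in Rgs5-high cells and 496, 122 and 313 CPM in Rgs5-low cells. Its control levels in the mural gates lay within each other's intervals, whereas at 1 week and at 2 months Rgs5-high cells had 4.28-fold higher (3.81 to 4.83) and 1.72-fold higher (1.58 to 1.87) levels. Tagln, Lmod1 and Des overlap annotated genes on the opposite strand, and no member overlaps one on its own strand. For each member, 0 of the 451 windows of 50 bases in the last 500 bases of its transcript were found in a transcript of its paralogs.

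In the comparison of fibroblasts with mural cells of the same library, all 10 members were at least 2-fold lower in fibroblasts in each library and against each mural gate. The background shares of genes that much lower were 21.5%, 11.3% and 17.7% against Rgs5-high cells in the control, 1-week and 2-month libraries, and 13.6%, 7.0% and 11.2% against Rgs5-low cells. Against Rgs5-low cells the median log2 ratio of the members was -5.84 for the control library, -3.85 for 1 week and -6.70 for 2 months, while that of all genes tested lay between -0.05 and -0.03. The tropomyosins were the members nearest to the mural level at 1 week, where fibroblast Tpm1 was 3.04-fold lower (2.92 to 3.16) and Tpm2 4.70-fold lower (4.53 to 4.87) than in Rgs5-low cells. In the control the same genes were 27.4-fold lower (26.7 to 28.1) and 53.6-fold lower (52.2 to 55.0). These values are over the whole Rgs5-low gate. At 1 week its 106 Dcn- and Lum-rich cells had 397 CPM of Tpm1 and 383 CPM of Tpm2. The other 95 cells had 2097 and 2743 CPM, so fibroblasts were further below those cells than the 1-week fold values state.

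Between the 1-week and control libraries the members moved in both directions in fibroblasts. The tropomyosins and Actg2 were higher at 1 week, the smooth muscle genes Myh11 and Lmod1 and the intermediate filament gene Des were lower, and Acta2 was nearly equal over the whole gate. Tpm1 was 2.25-fold higher (2.19 to 2.30) and Tpm2 2.34-fold higher (2.27 to 2.40) at 1 week than in the control. Actg2, at a low level, was 5.82-fold higher (4.35 to 7.93), with 469 UMIs at 1 week and 51 in the control. Lmod1 was 7.46-fold lower (6.30 to 8.87), Myh11 5.87-fold lower (5.42 to 6.37) and Des 3.63-fold lower (3.36 to 3.91). In counts, 3 of 10 members were at least 2-fold higher at 1 week, against 11.6% of 14582 genes tested, and 3 were at least 2-fold lower, against 10.6%. The median log2 ratio was -0.69 for the members and 0.02 for all genes.

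The Acta2 result depended on which fibroblasts were summed. Over the whole gate Acta2 had 235 CPM (231 to 238) at 1 week and 236 CPM (232 to 240.4) in the control. In fibroblasts with neither a Notch3 nor an Rgs5 UMI it had 195 CPM (192 to 199) at 1 week and 57.8 CPM (55.4 to 60.2) in the control, and was thus 3.38-fold higher (3.23 to 3.54) at 1 week. With Scrublet's doublet calls removed from the whole gate, the Acta2 ratio at 1 week over control was 2.04. The direction also turned for Tagln, which was 1.78-fold lower (1.73 to 1.83) over the whole gate and 1.44-fold higher (1.36 to 1.51) in the negative fibroblasts, and for Myl9, which was 1.47-fold lower (1.42 to 1.52) and 2.17-fold higher (2.03 to 2.31). Cnn1 was 1.99-fold lower (1.69 to 2.35) in the whole gate and 1.38-fold higher (1.02 to 1.88) in the negative fibroblasts. The tropomyosins were higher at 1 week in both sets, with Tpm2 4.64-fold higher (4.44 to 4.85) and Tpm1 3.25-fold higher (3.14 to 3.36) in the negative fibroblasts. Myh11, Lmod1 and Des were lower at 1 week in both, with Myh11 11.7-fold lower (9.39 to 14.7), Lmod1 8.29-fold lower (5.75 to 12.3) and Des 5.90-fold lower (5.16 to 6.76). In the negative fibroblasts 5 of 10 members were at least 2-fold higher and 3 lower, against 11.3% and 10.2% of genes, and the median log2 ratio of the members was 0.82. The Myh11 and Lmod1 calls of these fibroblasts are not read as expression, because neither gene stood 2-fold above the immune gate described next. Their Acta2 ratio rests on a control level that was no higher than in that gate.

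**Figure D2:**
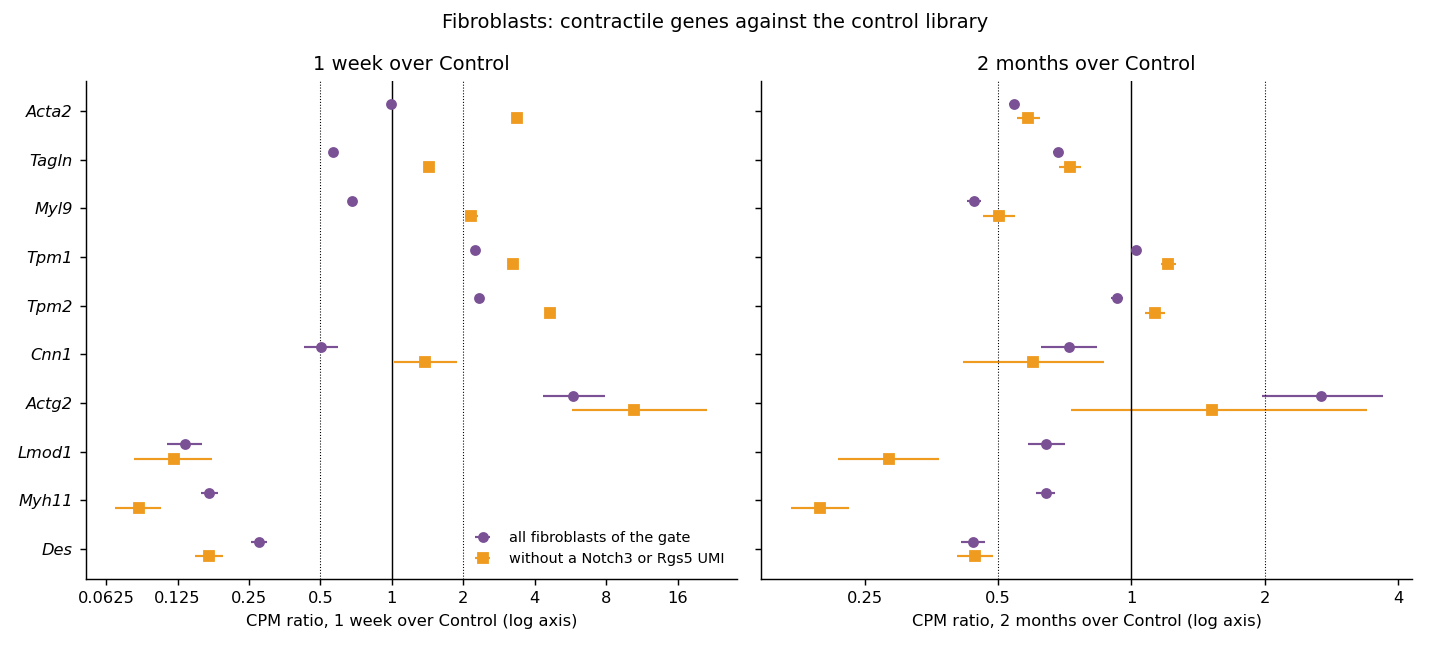
CPM ratios of each member in fibroblasts (log axis) at 1 week over control and at 2 months over control, for the whole gate (circles) and for fibroblasts without a Notch3 or Rgs5 UMI (squares), with 95% counting intervals and dotted lines at 2-fold. At 1 week the Acta2, Tagln, Myl9 and Cnn1 squares lie right of 1 while their circles lie left of it or on it.

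The same genes were read in the immune gate (a Ptprc UMI and none of Cdh5, Pdgfra and Notch3), whose cells should not make smooth muscle genes such as Acta2 and Myh11. Acta2 had 57.8, 195 and 33.8 CPM in Notch3- and Rgs5-negative fibroblasts and 61.7, 44.4 and 30.6 CPM in the immune gate, in the control, 1-week and 2-month libraries. In the control 44.2% of these fibroblasts had an Acta2 UMI at a median of 12721 UMIs, against 40.1% of immune cells at a median of 8987. Thinned to 5000 UMIs a cell, which left out 227 fibroblasts and 176 immune cells, the shares were 21.5% and 24.1%. The level and the thinned share in control fibroblasts were no higher than in immune cells, so they are not read as expression. The part of free RNA in these values was not tested. At 1 week the shares were 46.1% of negative fibroblasts (median 16058 UMIs) and 26.2% of immune cells (median 8149 UMIs), or 26.4% and 15.1% after thinning, which left out 47 and 705. Acta2 was then 4.41-fold higher in the fibroblasts than in the immune gate. At 2 months the level was within 1.11-fold of the immune gate's, and 10.4% of negative fibroblasts and 12.6% of immune cells had an Acta2 UMI after thinning, with 243 and 458 cells left out.

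Read against the immune gate of the same library, 2 of 9 members tested were at least 2-fold higher in Notch3- and Rgs5-negative fibroblasts in the control, 8 of 10 at 1 week and 5 of 9 at 2 months, where 23.7%, 27.6% and 29.2% of genes were. The members past 2-fold above the immune gate in the control were Tpm1, with 106 CPM in fibroblasts and 48.0 CPM in immune cells, and Des, with 26.9 and 4.58 CPM. Myh11 and Lmod1 were not 2-fold above the immune gate in any library. Negative fibroblasts had 17.9, 1.53 and 3.55 CPM of Myh11 in the control, 1-week and 2-month libraries, and immune cells 19.6, 1.83 and 6.52 CPM. Myh11 of the immune gate was itself 10.7-fold lower (7.70 to 15.2) at 1 week than in the control. For every 100 Acta2 UMIs, negative fibroblasts of the control held 31.0 (28.4 to 33.7) Myh11 UMIs and immune cells 31.8 (26.3 to 38.3). At 1 week the figures were 0.785 (0.633 to 0.962) in negative fibroblasts and 4.12 (3.02 to 5.50) in immune cells.

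Fibroblast Acta2 was held by few cells. The top 1% of fibroblasts carried 64.0% of its UMIs in control fibroblasts, 27.3% in those of 1 week and 75.1% in those of 2 months, and the median fibroblast had none. At least 10 Acta2 UMIs were found in 89 of 3781 control fibroblasts (2.35%), 460 of 4748 at 1 week (9.69%) and 104 of 5317 at 2 months (1.96%). These cells divided by Myh11, a split chosen after the values were seen. In the control 87 of the 89 had a Myh11 UMI. Those 87 cells held 80.6% of the fibroblast Acta2 UMIs, 46 of them (52.9%) were called doublets by Scrublet, and they had a UMI of a median of 7 of 10 smooth muscle markers that are not members.

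At 1 week 396 of the 460 cells had no Myh11 UMI. They held 58.2% of the fibroblast Acta2 UMIs at 1 week, against 0.353% in 2 such control cells. Of the 396, 3 were called doublets, and their median was 0 of 10 smooth muscle markers. Summed, they had 1189.9 CPM of Acta2, 668 of Tpm2, 608 of Tpm1, 371 of Tagln and 239.6 of Myl9, but 0.714 CPM of Lmod1 and 10.1 of Des. They also carried the matrix genes Postn, periostin, at 3639 CPM and Cthrc1 at 2128 CPM, while the 64 cells with Myh11 had 1726 and 937 CPM. The 2517 fibroblasts of 1 week with no Acta2 UMI had 2019.8 CPM of Postn and 1121 CPM of Cthrc1, so these matrix genes were also present outside the Acta2-high cells. At 2 months 31 of 104 cells lacked Myh11 and held 5.15% of the Acta2 UMIs. The 73 cells with Myh11 held 79.7%, and 33 of them were called doublets.

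**Figure D3:**
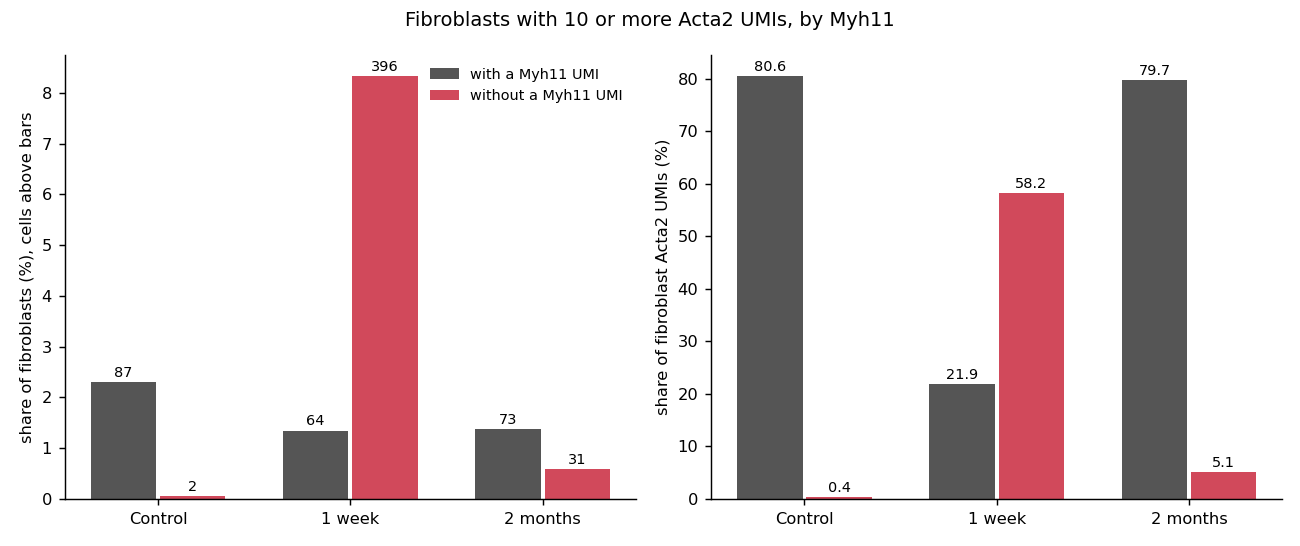
Fibroblasts of each library (control, 1 week and 2 months) with 10 or more Acta2 UMIs, with a Myh11 UMI (grey) or without one (red), as a share of fibroblasts (left, number of cells above each bar) and as a share of fibroblast Acta2 UMIs (right). Cells without Myh11 number 2 in the control library, 396 in the 1-week and 31 in the 2-month library.

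At 2 months the fibroblast tropomyosins were near the control level, while Acta2, Myl9 and Des were lower. Tpm1 was 1.02-fold higher (0.997 to 1.05) and Tpm2 1.08-fold lower (1.04 to 1.11) at 2 months than in the control. Acta2 was 1.84-fold lower (1.80 to 1.89), Myl9 2.27-fold lower (2.18 to 2.35) and Des 2.28-fold lower (2.14 to 2.43), while Actg2 was 2.68-fold higher (1.98 to 3.70). With doublet calls removed the Acta2 ratio was 0.803 and the Myl9 ratio 0.603, which ends the Myl9 call, and with the stricter cell filter the Acta2 ratio was 0.376. In counts, 1 of 10 members was at least 2-fold higher and 2 were lower, against 5.44% and 4.15% of 14620 genes, with a median log2 ratio of -0.60 for the members and 0.02 for all genes. In the Notch3- and Rgs5-negative fibroblasts Actg2 had 27 UMIs at 2 months and 11 in the control, too few for a call, and 0 of 9 members tested were higher and 3 lower, against 5.76% and 3.35% of genes. The lower ones were Myh11, 5.05-fold lower (4.34 to 5.89), Lmod1, 3.52-fold lower (2.72 to 4.60), and Des, 2.25-fold lower (2.05 to 2.48). These 3 were also 3.01-fold lower, 3.29-fold lower and 4.52-fold lower in the immune gate, and the part of free RNA in the result was not tested.

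Set against 1 week, the 2-month fibroblasts were lower in the tropomyosins, with Tpm1 2.19-fold lower (2.15 to 2.24) and Tpm2 2.52-fold lower (2.46 to 2.57), and Actg2 was 2.17-fold lower (1.86 to 2.54). Lmod1 and Myh11 were higher at 2 months, 4.79-fold higher (4.05 to 5.68) and 3.76-fold higher (3.47 to 4.07). The counts were 2 of 10 higher and 3 lower, against 8.86% and 8.31% of 14999 genes. In the negative fibroblasts 6 members were lower at 2 months than at 1 week, Acta2 by 5.78-fold (5.52 to 6.05) and Myl9 by 4.31-fold (4.03 to 4.62) among them. Higher at 2 months were 3, Myh11, Lmod1 and Des. The shares of genes lower and higher were 7.59% and 8.8%. Myh11 and Lmod1 of these fibroblasts were not 2-fold above the immune gate in either library, so their calls are not read as expression. The 2-month mice were older as well as later after surgery, so age and time cannot be told apart.

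Within Notch3- and Rgs5-negative fibroblasts the members varied with other fibroblast genes. At 1 week Acta2 had 227 CPM in the 2736 cells with at least 10 UMIs of Postn and 36.3 CPM in the 138 cells with none. Myl9 had 83.3 and 6.29 CPM and Tagln 91.6 and 8.71 CPM in these sets, whereas Tpm1 differed less, with 356 and 238 CPM. Des ran the other way, with 3.02 and 18.9 CPM. In the control Acta2 was lower in the 148 Postn-rich cells, with 43.7 CPM, than in the 2160 cells without Postn, with 60.1 CPM, and at 2 months it had 64.1 and 25.0 CPM. Both control levels were below the Acta2 level of the immune gate in the same library. So were the levels of the cells without Postn at 1 week and at 2 months, and none of these is read as expression. Cells with a UMI of Acan, the cartilage proteoglycan aggrecan, numbered 1916 at 1 week and had 255 CPM of Acta2, and at 2 months 309 such cells had 95.4 CPM. Dividing cells, which had at least 2 of the 5 genes Mki67, Top2a, Cdk1, Ccnb1 and Birc5, numbered 380 at 1 week and had 371 CPM of Acta2, against 149 CPM in the 2399 cells with none of the 5. Cells with a UMI of Pi16, a gene of adventitial fibroblast progenitors, had 91.5 CPM of Acta2 at 1 week. Des followed Prg4, the lubricin gene of the lining. Across the control, 1-week and 2-month libraries it had 76.7, 14.7 and 26.2 CPM in cells with at least 100 UMIs of Prg4, and 5.13, 3.01 and 3.14 CPM in cells with under 10, so the Prg4-rich cells were above the others in 3 of 3 libraries. Sets cut at a UMI number also differ in depth. The control cells with at least 100 Prg4 UMIs had a median of 17429 UMIs, against 6476 in those with under 10.

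Other genes of the pathway were read from 6 lists over the whole fibroblast gate, including its cells with mural transcripts. How far those cells set the lower levels of smooth muscle genes such as Pln was not tested. Of partner actomyosin and actin-binding genes, 8 of 38 tested genes were at least 2-fold higher and 7 lower at 1 week than in the control, against 11.6% and 10.6% of all genes, and the median log2 ratio was 0.31. Fhl2, a LIM-domain cofactor, was the highest, with 45.8 CPM at 1 week, against 5.2 CPM in the control, and Pln the lowest, with 0.585 CPM at 1 week, against 8.09 CPM in the control. The α-actinin gene Actn1 had 140.0 CPM at 1 week, against 22.7 CPM in the control, and Csrp2, a LIM protein of smooth muscle, had 426 CPM at 1 week, against 56.4 CPM in the control, both chosen after their values were seen. Paralogs of members did not move as one. Cnn2 and Cnn3, the calponins of non-muscle cells, were 4.19-fold higher (3.94 to 4.46) and 2.44-fold higher (2.35 to 2.52), and Tpm4 was 1.83-fold higher (1.79 to 1.87), but Tpm3 was 1.07-fold lower (1.04 to 1.09) and Tagln2 1.03-fold higher (1.02 to 1.04). The cytoplasmic actins were nearly level, and Actb had 2722 CPM at 1 week, against 2719 CPM in the control. Actg1 had 2185 CPM at 1 week, against 2231 CPM in the control. The non-muscle myosin Myh9 was 1.55-fold higher (1.49 to 1.60) and Myh10 1.02-fold higher (0.962 to 1.09).

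Among SRF, MRTF and myocardin regulators 2 of 15 tested genes were at least 2-fold higher and 4 lower, where 11.6% and 10.6% of all genes were. The shares higher in this list and in the next lists of kinases and TGF-β genes are near or below that of all genes. The share of this list that was lower is above it. The list also holds induced genes such as Ccn2, its lowest, so that share does not describe regulators alone. Srf itself had 6.56 CPM at 1 week, against 8.28 CPM in the control, and Mrtfa, the gene of its co-activator, had 16.6 CPM at 1 week, against 11.6 CPM in the control, both chosen after their values were seen. Ccn2, a matricellular gene induced by YAP and TGF-β, was the lowest of this list, 5.55-fold lower (5.46 to 5.64), and Tead2 the highest, 3.29-fold higher (2.85 to 3.81). In the list of RhoA, ROCK and myosin phosphatase genes 1 of 16 tested genes was at least 2-fold higher and 2 lower, with Prkg1, the cGMP-dependent kinase, 2.79-fold higher (2.41 to 3.24) and Ppp1r12b, a targeting subunit of myosin phosphatase, 3.08-fold lower (2.88 to 3.30). Of TGF-β genes, 1 of 18 tested genes was at least 2-fold higher and 1 lower, Ltbp2 being 2.41-fold higher (2.27 to 2.56) and Smad6 2.41-fold lower (2.16 to 2.68). In the myofibroblast matrix list 12 of 18 tested genes were at least 2-fold higher and 0 lower, with a median log2 ratio of 1.66. Its highest gene was Tnc, tenascin C, with 284 CPM at 1 week, against 4.72 CPM in the control, and its lowest was Fn1, with 3925 CPM at 1 week, against 5661 CPM in the control. In the immune gate 11 of 18 genes of this list were also at least 2-fold higher at 1 week, against 9.96% of all genes tested there. Set against the immune gate of 1 week, fibroblasts were at least 2-fold higher in 16 of 18, where 28.8% of all genes were. Of the other intermediate filament genes 0 of 4 tested genes were at least 2-fold higher and 1 lower, and Nes, nestin, was the lowest, 3.46-fold lower (3.09 to 3.89).

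At 2 months 5.44% of all genes were at least 2-fold higher and 4.15% lower in the whole fibroblast gate than in the control. In the actomyosin list 4 of 39 tested genes were at least 2-fold higher and 2 lower, and Fhl2 was again the highest, 3.25-fold higher (2.86 to 3.70). Ldb3, a Z-line protein of striated muscle, was the lowest, 4.71-fold lower (3.70 to 6.04). None of 15 genes in the list of SRF, MRTF and myocardin regulators passed 2-fold in either direction at 2 months. In the myofibroblast matrix list 7 of 18 tested genes were at least 2-fold higher and 0 lower, with Tnc 24.8-fold higher (21.9 to 28.2). Both operated libraries were set against the same control library, so the 2 comparisons share its counts.

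Mural cells were next read across Rgs5 levels, since the split at 10 UMIs is a fixed cut through a continuous range. In the control Acta2 was lower at each higher step of Rgs5. It had 20030.1 CPM in cells with no Rgs5 UMI, 14123 CPM at 1 to 4, 11042 CPM at 5 to 9, 8775 CPM at 10 to 19, 5948 CPM at 20 to 49 and 4181 CPM at 50 or more. Cells just below and just above the cut, with 5 to 9 and 10 to 19 Rgs5 UMIs, thus stood between the extremes. At 2 months those bins had 12344 and 6929 CPM, and at 1 week 5922 and 6313 CPM. Myh11 had 3266 CPM at no Rgs5 UMI and 1189 CPM at 50 or more in the control, and Tpm2 had 7169 and 1300.5 CPM. Des stayed within 431 and 532 CPM over the control bins. At 1 week the bin without Rgs5 was the lowest for Acta2 at 3009 CPM and for Des at 86.3 CPM. That bin had 9061 CPM of the collagen gene Col1a1, against 2214 CPM at 50 or more Rgs5 UMIs. The bins with 15 control cells at 50 or more, 18 cells at 5 to 9 at 1 week and 15 cells at 10 to 19 at 2 months held under 20 cells each.

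**Figure D4:**
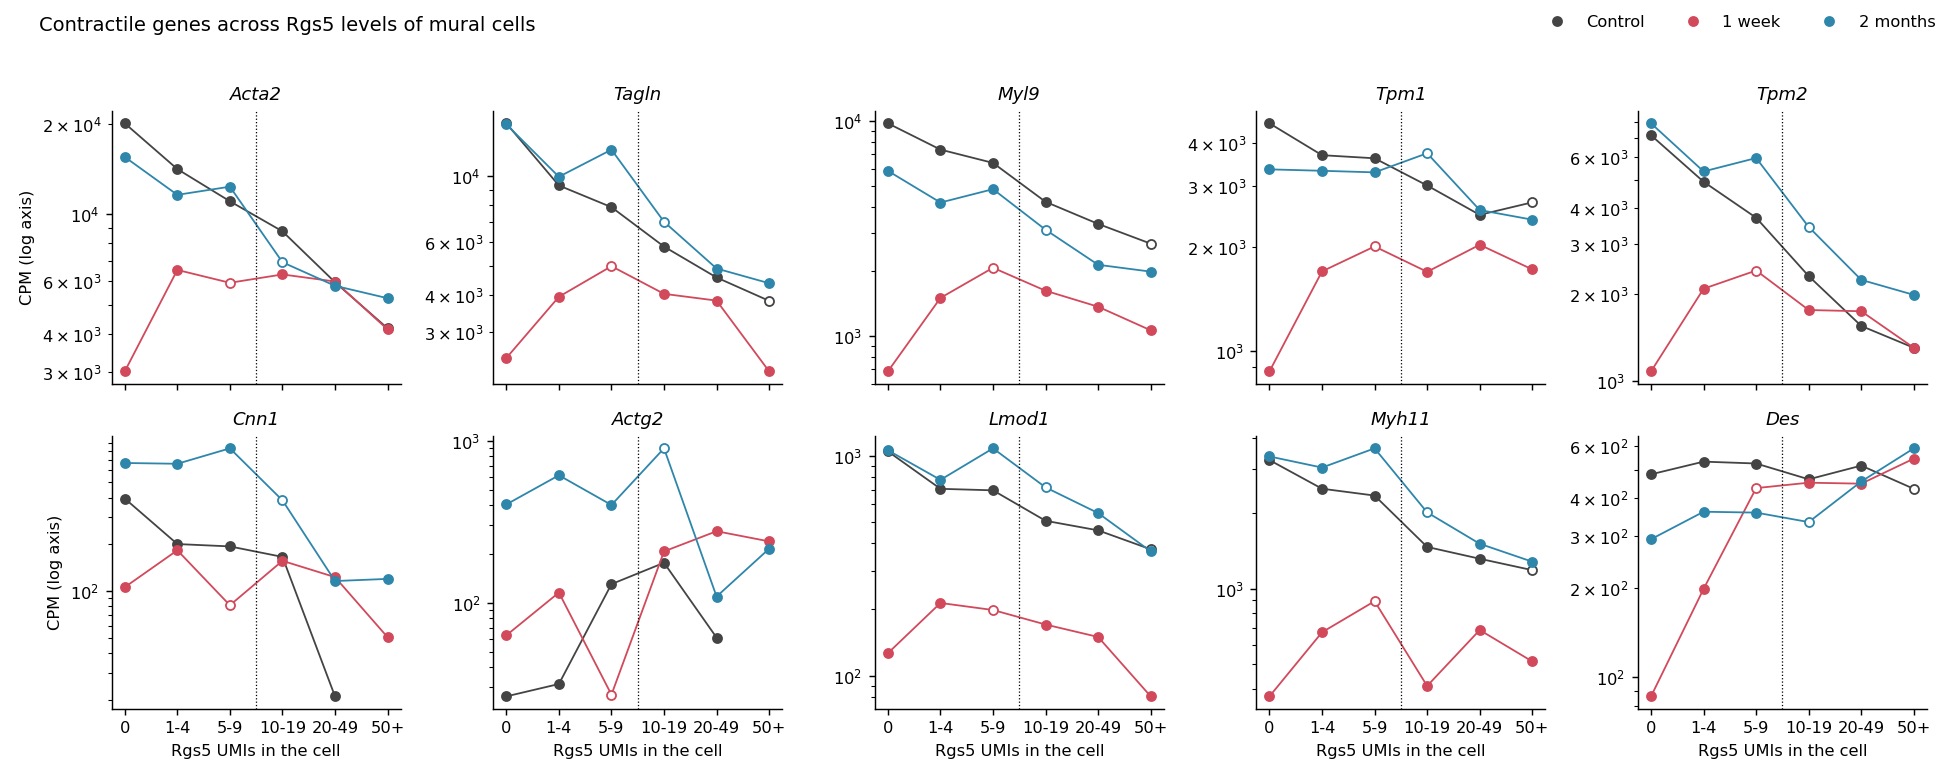
CPM (log axis) of each member in mural cells grouped by their Rgs5 UMIs, with a line per library (control dark grey, 1 week red, 2 months blue), a dotted line at the cut of 10 UMIs and open points for bins with fewer than 20 cells; levels of 0 (Cnn1 and Actg2 in the last control bin) are left out. Most members decline to the right in the control and 2-month libraries, and Des does not.

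In Rgs5-high mural cells the members with the lowest 1-week levels relative to the control were Lmod1, Myl9 and Myh11. Lmod1 was 4.81-fold lower (4.22 to 5.47), Myl9 3.11-fold lower (2.98 to 3.25) and Myh11 2.5-fold lower (2.33 to 2.67) at 1 week than in the control. Tagln was 1.90-fold lower (1.84 to 1.97) and Acta2 1.46-fold lower (1.42 to 1.51). The cells of the gate sat at different Rgs5 levels, with 372 of 510 at 50 or more Rgs5 UMIs at 1 week and 15 of 101 in the control. Bins of equal Rgs5 UMIs do not match Rgs5 relative to depth. The gate had medians of 10608 UMIs at 1 week and 8134 in the control, and the bin of 50 or more has no upper end. In these bins Acta2 had 6313 CPM at 1 week and 8775 CPM in the control at 10 to 19 UMIs. It had 5980.4 and 5948 CPM at 20 to 49, and 4146 and 4181 CPM at 50 or more, so the Acta2 levels were nearly equal in the upper bins. Lmod1 was lower at 1 week in each of these bins, with 149.8 and 457 CPM at 20 to 49 UMIs, and so was Myl9, with 1367 and 3322 CPM. Over the whole gate Actg2 went the other way and was 2.67-fold higher (2.13 to 3.41), with 40.6% of cells holding an Actg2 UMI at 1 week and 17.8% in the control. Cnn1 and Des had ratios of 0.993 (0.752 to 1.33) and 1.08 (0.974 to 1.2), but the Cnn1 ratio was 0.646 with the cut at 5 Rgs5 UMIs and 3.93 with the cut at 20. That is 1 of 10 members at least 2-fold higher and 3 lower, against 9.3% and 8.44% of 9202 genes tested, with median log2 ratios of -0.57 and -0.05. The control gate rested on 101 cells and 840733 UMIs, which sets the width of its intervals.

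At 2 months the Rgs5-high cells were closer to the control. Myh11 was 1.03-fold higher (0.962 to 1.10), Lmod1 1.05-fold lower (0.935 to 1.19) and Tagln 1.04-fold lower (1.00 to 1.08), and Myl9 was 1.68-fold lower (1.60 to 1.76). Actg2 was 2.53-fold higher (1.98 to 3.26) and Cnn1 2.01-fold higher (1.51 to 2.71) at 2 months. The counts were 2 of 10 higher and 0 lower, against 3.53% and 2.34% of 6913 genes. The Cnn1 call was at the edge of 2-fold and rested on 57 control UMIs. Set against 1 week, 3 members were at least 2-fold higher at 2 months and 0 lower, against 6.84% and 5.56% of genes: Lmod1 by 4.56-fold (4.11 to 5.06), Myh11 by 2.57-fold (2.45 to 2.70) and Cnn1 by 2.02-fold (1.73 to 2.35).

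In Rgs5-low mural cells 9 of 10 members were at least 2-fold lower and 1 higher at 1 week than in the control, against 13.9% and 11.9% of 9501 genes. The median log2 ratio was -2.25 for the members and -0.08 for all genes. Over the whole gate Acta2 was 4.79-fold lower (4.69 to 4.90), Myl9 10.1-fold lower (9.64 to 10.5) and Myh11 6.75-fold lower (6.35 to 7.17). The 106 cells rich in Dcn and Lum had 559 CPM of Acta2, 68.0 CPM of Myh11 and 12718 CPM of Col1a1, and a median of 0 of 10 smooth muscle markers. The other 95 cells had 8668 CPM of Acta2 and 1030.2 CPM of Myh11, with a median of 5 markers, and the 543 such control cells had 19974 and 3334 CPM, with a median of 7.

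Between those cells with few Dcn and Lum UMIs the members were still mostly lower at 1 week. Acta2 was 2.30-fold lower (2.25 to 2.36), Tagln 2.30-fold lower (2.24 to 2.36), Myl9 4.91-fold lower (4.69 to 5.14), Myh11 3.24-fold lower (3.04 to 3.45) and Lmod1 3.10-fold lower (2.77 to 3.47). Tpm1 was 2.25-fold lower (2.15 to 2.35), Tpm2 2.59-fold lower (2.49 to 2.69) and Des 2.47-fold lower (2.15 to 2.86). Cnn1 no longer passed 2-fold, 1.38-fold lower (1.21 to 1.58), and Actg2 was 4.02-fold higher (3.21 to 5.03). Over the whole gate the Actg2 ratio was 2.03, and with barcodes of at least 1000 genes and 5% mitochondrial UMIs or less it was 0.809, so its direction turned. Each of the 8 members other than Cnn1 and Actg2 thus stayed at least 2-fold lower, by less than over the whole gate. These cells still differed in the fibroblast gene Col1a1, with 2979.8 CPM at 1 week and 189.9 CPM in the control, and the part of such a difference in the result was not tested. Notch3 had 280.2 and 467 CPM, but it set the gate and so is no separate marker. Over Rgs5-low cells with at least 2 smooth muscle markers the Des ratio was 0.532, short of 2-fold. Of the 95 cells at 1 week, 2 had over 10% haemoglobin UMIs.

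The 2-month Rgs5-low cells resembled the control in most members. Tagln was 1.02-fold higher (1.01 to 1.03), Myh11 1.09-fold higher (1.07 to 1.12), Lmod1 1.05-fold higher (1.00 to 1.10) and Tpm2 1.11-fold higher (1.09 to 1.13) at 2 months. Myl9 was 1.67-fold lower (1.64 to 1.70) and Des 1.58-fold lower (1.47 to 1.71). Actg2 stood out with 449.6 CPM at 2 months, against 34.9 CPM in the control, which is 12.9-fold higher (11 to 15.2). An Actg2 UMI was found in 31.7% of these cells at 2 months and 8.09% in the control, or 28.3% and 6.22% after thinning to 5000 UMIs, with 18 and 101 cells left out. In the immune gate of 2 months the share was 0.254%, at a median of 8468 UMIs, against 11618 in the Rgs5-low cells. Of the 249 Rgs5-low cells at 2 months, the 13 with most Actg2 held 51.4% of its UMIs. The counting interval leaves out this spread between cells. Cnn1 was 2.00-fold higher (1.88 to 2.14), at the edge of the call. In counts 2 of 10 members were higher and 0 lower, against 3.62% and 3.3% of 9527 genes. At 2 months against 1 week, 10 of 10 members were higher and 0 lower over the whole gate, against 9.76% and 9.56% of 8709 genes. Without the Dcn- and Lum-rich cells Acta2 was 1.89-fold higher (1.84 to 1.93), Tpm1 1.81-fold higher (1.73 to 1.90) and Des 1.67-fold higher (1.43 to 1.94), short of 2-fold, and the other 7 members were between 2.42-fold and 3.71-fold higher.

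**Figure D5:**
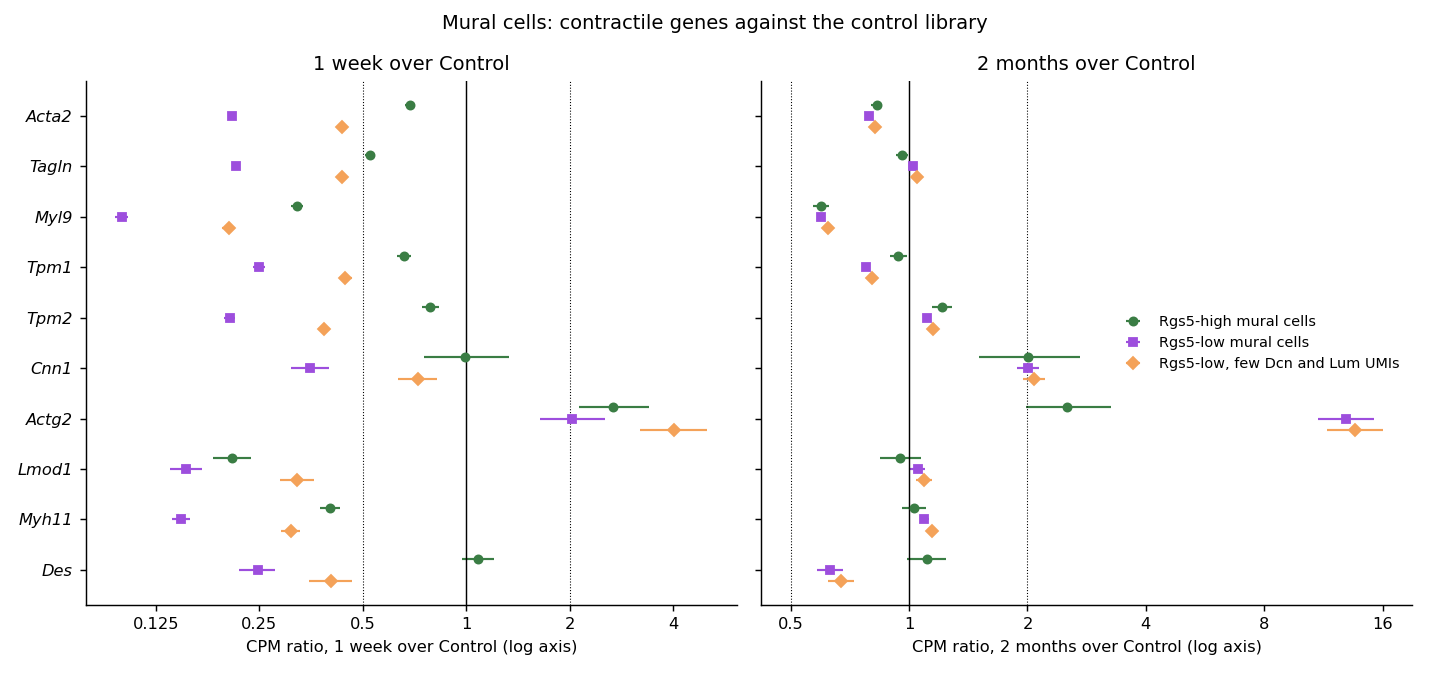
CPM ratios of each member in mural cells (log axis) at 1 week over control and at 2 months over control, for Rgs5-high cells (circles), Rgs5-low cells (squares) and Rgs5-low cells with fewer than 10 Dcn and Lum UMIs per 10000 (diamonds), with 95% counting intervals and dotted lines at 2-fold. At 1 week the diamonds lie between the squares and 1 for each member except Actg2, and at 2 months most points lie near 1 while Actg2 and Cnn1 lie to the right.

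Partner genes were read in mural cells as well, over the whole gates. The Rgs5-low gate of 1 week thus included its 106 cells rich in Dcn and Lum, whose part in these values was not tested. In the actomyosin list of Rgs5-low cells 6 of 39 tested genes were at least 2-fold higher and 16 lower at 1 week than in the control, against 11.9% and 13.9% of all genes. Mylk, the myosin light chain kinase, had 381 CPM at 1 week, against 1589 CPM in the control. At 2 months 3 of 39 tested genes were at least 2-fold higher and 0 lower, against 3.62% and 3.3%, and the highest was Actc1, the cardiac α-actin and a paralog of Acta2, with 108 CPM at 2 months, against 11.8 CPM in the control. Myocd, the co-activator myocardin, had 87.4 CPM at 2 months, against 46.9 CPM in the control, and 28.5 CPM at 1 week, and was chosen after its values were seen. In Rgs5-high cells at 1 week 2 of 38 tested genes were at least 2-fold higher and 8 lower, against 9.3% and 8.44% of all genes. Pln was the lowest there, 10.4-fold lower (7.63 to 14.1). Tpm4, the tropomyosin of non-muscle cells, was 2.17-fold higher (1.94 to 2.43) in Rgs5-high and 3.58-fold higher (3.26 to 3.93) in Rgs5-low cells. In the list of SRF, MRTF and myocardin regulators, which also holds induced genes, Ccn2 was the lowest, 17.0-fold lower (14.8 to 19.6).

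The endothelial gate (a Cdh5 UMI and none of Ptprc and Pdgfra), whose cells line the vessels, also held transcripts of the members. Acta2 had 669 CPM in the control library, 244 CPM at 1 week and 179 CPM at 2 months in that gate. Tagln had 992, 179 and 595 CPM and Myh11 142, 17.4 and 59.9 CPM in the same order of libraries. At 1 week 8 of 10 members were at least 2-fold lower and 1 higher than in the control, against 8.16% and 7.28% of genes. At 2 months 7 of 10 were lower and 0 higher than in the control, against 2.91% and 3.45%. Lmod1 was 10.4-fold lower (8.09 to 13.4) at 1 week, and Actg2 was 4.52-fold higher (2.98 to 7.14). Tpm1 differed least between the libraries, with 421, 398 and 308 CPM. For every 100 Acta2 UMIs the endothelial gate held 148 (143 to 153) Tagln UMIs in its control cells, 73.1 (69.8 to 76.6) in those of 1 week and 332 (317 to 349) in those of 2 months. Rgs5-low mural cells held 73.3 (72.6 to 74.1), 74.9 (72.6 to 77.3) and 94.6 (93.3 to 95.8), so the gates differed in this ratio in the control and 2-month libraries. The part of merged droplets and free RNA in the endothelial values was not tested.

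The members were also read cell by cell, as Pearson correlations of log-scaled UMIs per 10000, which share library depth and are given as a description. In Rgs5-low cells the 21 pairs among Acta2, Tagln, Myl9, Tpm1, Tpm2, Lmod1 and Myh11 had r of 0.74 to 0.94 over 593 control cells, 0.73 to 0.91 over 201 cells at 1 week and 0.75 to 0.94 over 249 cells at 2 months. The 201 cells included the 106 rich in Dcn and Lum. In Rgs5-high cells these pairs had r of 0.45 to 0.86, 0.48 to 0.80 and 0.52 to 0.86 over 101, 510 and 174 cells. Des stood apart, with r of -0.18 to 0.34, -0.08 to 0.08 and -0.18 to -0.07 against the other 9 members. The r of Actg2 with Cnn1 there was 0.66, 0.46 and 0.70, and at 1 week that with Acta2 was higher, at 0.55. In Notch3- and Rgs5-negative fibroblasts the median r over all 45 pairs was 0.07, 0.09 and 0.04. Over the 3507 such cells at 1 week the highest pair was Acta2 with Myl9, at 0.53, and Acta2 with Tagln had 0.52.

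To place the apparatus among all genes, the mean log2(CPM + 1) of the 10 members was taken in 15 units, which were the 3 libraries in each of the fibroblast, Rgs5-high, Rgs5-low, endothelial and immune gates. It ranged from 2.77 in the immune gate at 2 months to 11.3 in Rgs5-low cells at 2 months. The 10 genes most like it by Pearson r, among 12985 genes with at least 500 UMIs, were Map3k7cl, Rbpms2, Ppp1r14a, Plxnb1, Mark1, Atp1b2, Mylk, Fbxl22, Synpo2 and Rasl12, with r from 0.990 to 0.980. Ppp1r14a, the myosin phosphatase inhibitor CPI-17, had 912, 166 and 1012 CPM in Rgs5-low cells of the control, 1-week and 2-month libraries and 19.3, 6.35 and 8.50 CPM in fibroblasts. Mylk had 1589, 381 and 1852 CPM in Rgs5-low cells. The 15 units share libraries, and gates set most of the spread, so the r values carry no test. Of the members themselves Actg2 was the least like the mean, at 0.909, and Acta2 the most, at 0.995.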

How the data were processed

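The deposited matrices hold raw UMI counts per gene and barcode, not normalized. Per the file headers Cell Ranger 5.0.0 or 5.0.1 wrote them, and the submitters' processing notes name Cell Ranger 6.0.1 and mm10, so the version is uncertain. Barcodes were kept from 500 genes upwards and up to 10% mitochondrial UMIs, and barcodes in no gate (15.9% to 22.0% of a library) were not used. Scrublet calls (3.86%, 4.12% and 4.70% of the control, 1-week and 2-month barcodes) were not removed except as an alternative.

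Counts were summed over each gate and divided by the gate's total. Intervals at 95% are exact Poisson for CPM, exact conditional binomial for ratios and Clopper-Pearson for shares. They cover counting error only. All genes whose 2 sums held at least 50 UMIs formed the background. No p-value was computed. The summing and ratio code was tested on simulated counts with known ratios.

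The members, lists, subsets and cuts were chosen with earlier results of these data known. The text names the members, the extremes of each partner list in fibroblasts, paralogs of members and the 10 genes most like the members. Positions are from GENCODE vM21 on GRCm38, which held 32235 of 32285 gene identifiers. Python 3.11.15, numpy 2.4.6, scipy 1.17.1, pandas 2.3.3, scanpy 1.11.5 and matplotlib 3.10.9 were used. The alternatives changed doublet removal, cell filters, gates, the Rgs5 cut, depth, cell weighting, scaling and the size of a call.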

Additional observations from a re-analysis of the deposited data

Results flagged for a closer look

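Over the whole gates some members moved in opposite directions, each past 2-fold, in 2 gates or at the 2 times. With 1 library per group these differences were not tested. Tpm1 at 1 week over control had a ratio of 2.25 in fibroblasts and 0.250 in Rgs5-low mural cells, and at 2 months over 1 week 0.456 in fibroblasts and 3.11 in Rgs5-low cells. Tpm2 at 1 week over control had 2.34 in fibroblasts and 0.205 in Rgs5-low cells, and at 2 months over 1 week 0.397 in fibroblasts and 5.42 in Rgs5-low cells. In Rgs5-low cells with few Dcn and Lum UMIs, Tpm1 and Tpm2 were 2.25-fold lower (2.15 to 2.35) and 2.59-fold lower (2.49 to 2.69) at 1 week than in the control, still opposite to fibroblasts. In those cells at 2 months Tpm1 was 1.81-fold higher (1.73 to 1.90) than at 1 week, short of 2-fold, Tpm2 was 2.99-fold higher (2.87 to 3.11) and Actg2 3.38-fold higher (2.86 to 4.01). Actg2 at 2 months over 1 week had a ratio of 0.461 in fibroblasts and 6.33 in Rgs5-low cells. Cnn1 in Rgs5-low cells had 0.351 at 1 week over control and 2.00 at 2 months over control, and without the Dcn- and Lum-rich cells it was 1.38-fold lower (1.21 to 1.58) at 1 week and 2.07-fold higher (1.94 to 2.21) at 2 months.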

How the results depend on the processing

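No paired analysis was possible because each group is 1 library. Of the recomputed counts of members past 2-fold, 417 stayed within 1.5 times the reported count, and the other 39 follow. In fibroblasts at 1 week against control, the higher members numbered 5 without Notch3 and Rgs5 UMIs, 5 with doublet calls removed as well, and 1 at a 3-fold call. At 2 months against control in fibroblasts, the higher members numbered 0 without Notch3 and Rgs5 UMIs (also with doublet calls removed) and 0 at 3-fold. The lower ones numbered 1 with doublet calls removed, 6 under the stricter cell filter (1000 genes or more, mitochondrial UMIs up to 5%), 0 at 3-fold, 4 without Notch3, Rgs5 and doublet calls, and 1 with immune-gate CPM subtracted. At 2 months against 1 week in fibroblasts, the lower members numbered 5 with doublet calls removed, 5 with the stricter cell filter, 6 without Notch3 and Rgs5 UMIs, 7 with doublet calls removed as well, 0 at 3-fold and 1 with immune-gate CPM subtracted. In Rgs5-high cells at 1 week against control the higher members numbered 2 with the cut at 20 Rgs5 UMIs and 0 at 3-fold. At 2 months against control they numbered 1 with the stricter cell filter, 1 with a Pdgfrb UMI required, 1 with every cell weighted equally, 1 with at least 2 smooth muscle markers, 0 after thinning to 5000 UMIs and 0 at 3-fold. At 2 months against 1 week they numbered 5 with the cut at 5 and 1 at 3-fold. In Rgs5-low cells at 1 week against control the higher members numbered 0 with the stricter filter, with a Pdgfrb UMI, with the cut at 20 and at 3-fold. At 2 months against control they numbered 1 with the stricter filter (where 2 were lower), with a Pdgfrb UMI, with the cut at 5, with the cut at 10 Rgs5 UMIs per 10000, after thinning, with every cell weighted equally and at 3-fold. The cause was not tested, apart from the smaller number of calls that a 3-fold rule makes by construction. The Actg2 ratio in Rgs5-low cells at 1 week against control reversed to 0.809 with the stricter filter. Of the other ratios of single members, 1782 kept their value within the counting interval and 1064 moved outside it. Many could not move. Settings for the fibroblast gate alone leave ratios within mural cells as they were, and the reverse holds for mural settings. The size of a call and the UMI minimum change no ratio. The 1782 ratios and 417 counts that stayed are therefore no measure of stability. The subtraction of immune-gate CPM, the joint removal of doublet calls, and the 2 limits on Dcn, Lum and smooth muscle markers in mural cells were chosen after seeing the data. Depth limits members of low UMI counts, such as Actg2, Cnn1 and Lmod1 in fibroblasts, and 1 pooled library per group leaves the spread between mice unknown.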
